A study of Mus musculus with 12 samples.

Results

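The 9 genes described here encode the class I histone deacetylases HDAC1, HDAC2 and HDAC3 and the corepressors that carry them, the Sin3 scaffolds SIN3A and SIN3B, the CoREST scaffolds RCOR1 and RCOR2 with their histone demethylase KDM1A (LSD1), and the nuclear receptor corepressor NCOR1. They were taken by gene symbol from the deposited table of normalized RNA-seq values, where all 9 of the listed symbols were found among 50978 genes. Their mRNA was measured in mouse E14 embryonic stem cells (ESCs) grown in 15% serum with LIF. Of the 3 lines compared, parental ESCs carried no transgene and ESC + H/F-PRAMEL7 WT expressed HA/FLAG-tagged PRAMEL7. ESC + H/F-PRAMEL7 ΔN expressed tagged PRAMEL7 with an N-terminal deletion. The labels give this deletion as 50 amino acids, whereas the study's text gives fewer. The 2 lines with a transgene are called the WT line and the ΔN line below. Each line had 2 libraries, which the labels give as independent dishes, whereas the study's methods speak of collection in triplicate. Both transgenes were placed at the Rosa26 locus with Cas9 under the CAG promoter, and both lines went through puromycin selection and single-cell cloning. The labels name no further clone of either line, so the p-values measure the spread between dishes, not between clones.

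Histone deacetylases remove acetyl groups from histone tails, and the class I enzymes act mainly inside large corepressor assemblies that transcription factors bring to promoters and enhancers. HDAC1 and HDAC2 share the Sin3 and CoREST assemblies and are also found in NuRD, whereas HDAC3 works with NCOR1. CoREST couples deacetylation to removal of methyl groups from histone H3 lysine 4 by KDM1A. In ESCs these assemblies are known for holding down lineage genes and for switching off stem cell enhancers during differentiation. PRAMEL7 is a substrate receptor of a CUL2 ubiquitin ligase, and the deletion removes the part that contacts CUL2. The comparisons asked how far the mRNA of these genes differed in ESCs with the complete or the shortened protein. Protein levels of the corepressors were not analysed here.

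The 6 libraries held between 18253527 and 19854304 reads on genes. The values of the members are given as CPM (reads on the gene scaled to about the same total in each library), recovered from the deposited RPKM values, and as CPM per kb of merged exons where levels of different genes are set side by side. Pearson's correlation across genes between the 2 libraries was 0.990 for parental ESCs, 0.997 for the WT line and 0.995 for the ΔN line, so the parental pair was the least alike. *Pramel7* was at 0.258 and 0.217 CPM in parental ESCs, at 51.2 and 46.2 CPM in the WT line and at 397.7 and 430.9 CPM in the ΔN line, as labelled. The ΔN line thus held more *Pramel7* mRNA than the WT line, and the deletion, the transgene level and the choice of clone cannot be told apart in any difference between these lines. All 8 pluripotency markers, among them *Pou5f1* and *Nanog*, were above 1 CPM. Their summed level was 4235 to 4613 CPM in parental ESCs, 3965 to 4147 in the WT line and 4729 to 4816 in the ΔN line. The sum hid opposite directions. In the WT line *Pou5f1* was at 823.0 and 855.5 CPM, against 659.4 and 749.8 in parental ESCs. *Nanog* was at 453.8 and 454.3 CPM there, against 618.3 and 553.4. Of 7 fibroblast markers 2 were above 1 CPM on average, and their sum of 41.9 to 55.6 CPM in parental ESCs, 21.1 to 22.4 in the WT line and 38.8 to 43.7 in the ΔN line was nearly all *Thy1*. *Dcn* and *Lum* were at 0 in all 6 libraries. Of 6 trophectoderm markers 4 were above 1 CPM on average. Their sum was 78.8 to 116.0 CPM in parental ESCs, 81.4 to 86.7 in the WT line and 64.0 to 67.5 in the ΔN line. In the ΔN line *Tfap2c* was lower than in parental ESCs, whereas *Krt18* and *Eomes* were higher. The primitive endoderm, mesendoderm and neural lists each summed to 11.55 CPM or less. In these bulk samples a smaller number of cells of a type and less RNA per cell cannot be told apart.

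*Rcor2* was the member that differed most between the lines. *Rcor2*, on chromosome 19 from 7267325 to 7275225 (GRCm38, GENCODE annotation, plus strand), encodes the CoREST scaffold typical of ESCs and neural progenitors. It was at 165.1 and 183.4 CPM in parental ESCs, at 230.7 and 241.0 CPM in the WT line and at 121.2 and 115.8 CPM in the ΔN line. The 3 lines did not overlap, with the WT line highest and the ΔN line lowest. Compared with parental ESCs, *Rcor2* rose in the WT line by 0.44 on the log2 scale (SE 0.088, limma adjusted p = 0.00818) and fell by 0.55 in the ΔN line (adjusted p = 0.00293). Between the lines with a transgene the log2 difference was 0.99 (95% interval 0.79 to 1.18, adjusted p = 0.000137), a ratio of 1.99 in CPM. These 3 differences share libraries and are not independent of one another. The direction was the same in all 19 alternatives run for each of these comparisons. The adjusted p lay between 1.37e-08 and 0.0064 for the WT line against the ΔN line and between 4.55e-05 and 0.0399 for the ΔN line against parental ESCs. The call in the WT line against parental ESCs was lost with 1 WT library left out, at an adjusted p of 0.068 without replicate 1 and of 0.0958 without replicate 2, within a range of 0.000419 to 0.0958 over its alternatives.

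*Sin3b* showed the same order of lines, with smaller differences. It lies on chromosome 8 from 72723285 to 72758201 and encodes the scaffold of the Sin3 complex that is tied to cell cycle exit. *Sin3b* was at 132.0 and 130.7 CPM in parental ESCs, 143.9 and 154.4 CPM in the WT line and 110.1 and 109.1 CPM in the ΔN line, and the lines did not overlap. The WT line was higher than the ΔN line by 0.44 on the log2 scale (SE 0.083, 95% interval 0.25 to 0.63, adjusted p = 0.00616), or 1.36 times. Against parental ESCs, neither the difference in the WT line (0.18, adjusted p = 0.136) nor that in the ΔN line (-0.26, adjusted p = 0.0554) passed the threshold. The first passed with median-ratio scaling (0.27, adjusted p = 0.0435) and after the correction for gene span (0.32, adjusted p = 0.0253), within a range of 0.0253 to 0.531, and the second without parental replicate 1 (-0.25, adjusted p = 0.0423) or replicate 2 (-0.27, adjusted p = 0.045), within a range of 0.0423 to 0.246. The call between the WT line and the ΔN line was lost without WT replicate 1 (adjusted p = 0.0518), without WT replicate 2 (0.1003) and without ΔN replicate 2 (0.0678), while the log2 difference stayed between 0.39 and 0.49 and the adjusted p ranged from 0.000191 to 0.1003 over all alternatives.

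*Sin3a*, the scaffold of the main Sin3 complex and needed for early embryonic growth, moved the other way in the WT line. It lies on chromosome 9 from 57072040 to 57128366 and was at 357.3 and 371.2 CPM in parental ESCs, 303.1 and 295.2 CPM in the WT line and 355.7 and 346.7 CPM in the ΔN line. Both WT libraries were below the other 4. The fall of *Sin3a* in the WT line against parental ESCs was 0.28 on the log2 scale (SE 0.078, adjusted p = 0.0277), a 17.9% lower level, and the ΔN line differed from parental ESCs by -0.05 (adjusted p = 0.686), a sign that turned under 2 other settings. The WT line against the ΔN line gave -0.23 (95% interval -0.41 to -0.06, adjusted p = 0.0645) and was not called. The only call for *Sin3a* was its fall in the WT line against parental ESCs. This call was near the threshold: 9 of 18 alternatives lost it, among them median-ratio scaling (adjusted p = 0.1101) and leaving out either WT library (0.1500 and 0.193) or either ΔN library (0.0558 and 0.0553), with a range of 0.0102 to 0.291. The log2 difference stayed below 0 in all 18, between -0.31 and -0.13. An antisense transcript, *Man2c1os*, shares 205 exon bases with *Sin3a* and was at or below 0.825 CPM, and the kit did not keep the strand.

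**Figure D1:**
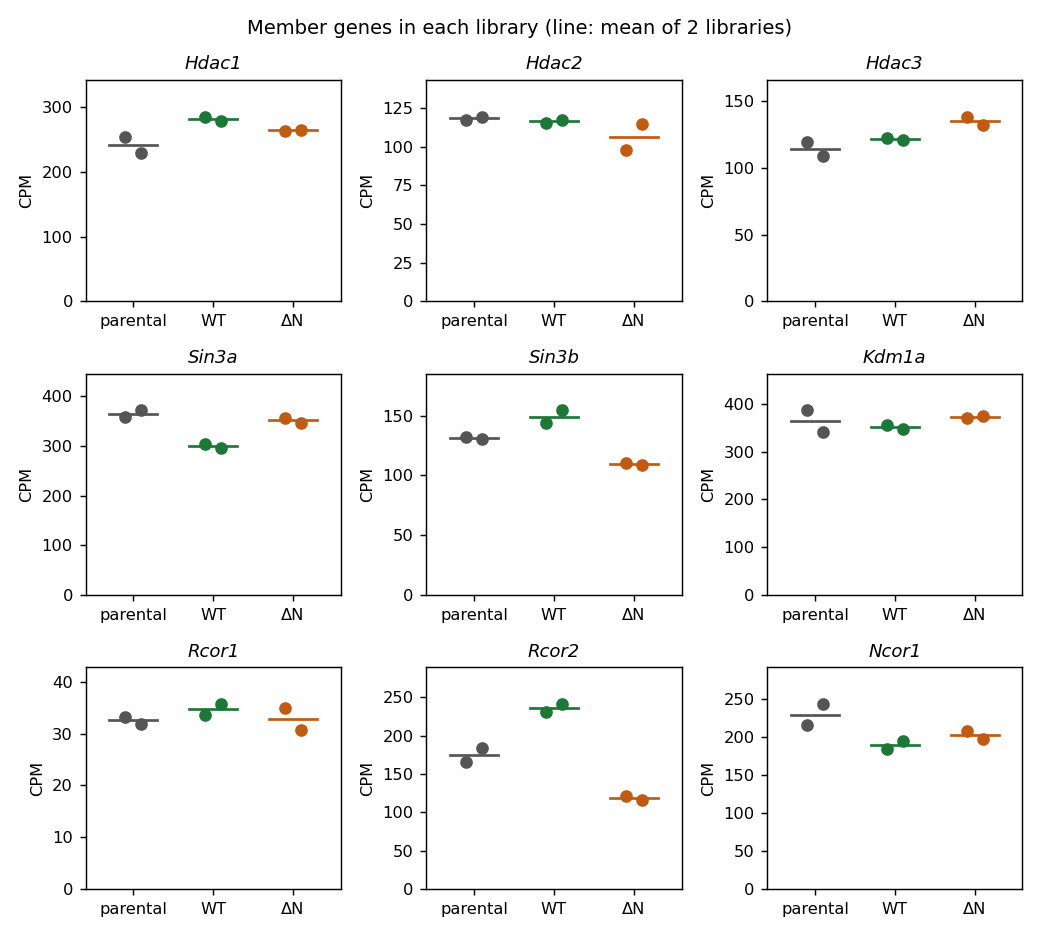
CPM of the 9 member genes (1 panel each, axis from 0) in the 2 libraries of parental ESCs, the WT line and the ΔN line, where a point is a library and a bar the mean of the pair. The lines of *Rcor2* and *Sin3b* run in the order WT, parental, ΔN without overlap, and *Sin3a* is lowest in the WT line. For *Kdm1a* both other lines overlap parental ESCs, and for *Rcor1* the ΔN line overlaps each other line.

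Because *Rcor2* and *Sin3b* shared an order of lines and *Sin3a* was lowest in the WT line, the sequences before their start sites are shown side by side. They are RefSeq sequences of build GRCm38.p6, 5′ to 3′ on the strand of the gene, and end at the base before the RefSeq start. Capitals mark CG dinucleotides, the sites of DNA methylation in mammals. For *Rcor2* the last 69 of 250 bases lie in an exon of another annotated transcript and are left out.

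Rcor2 promoter (chr19:7267144-7267324, + strand): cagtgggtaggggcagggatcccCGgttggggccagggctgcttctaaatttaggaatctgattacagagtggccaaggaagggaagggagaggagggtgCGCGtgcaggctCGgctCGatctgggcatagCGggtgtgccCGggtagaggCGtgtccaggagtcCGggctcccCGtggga

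Sin3b promoter (chr8:72723020-72723269, + strand): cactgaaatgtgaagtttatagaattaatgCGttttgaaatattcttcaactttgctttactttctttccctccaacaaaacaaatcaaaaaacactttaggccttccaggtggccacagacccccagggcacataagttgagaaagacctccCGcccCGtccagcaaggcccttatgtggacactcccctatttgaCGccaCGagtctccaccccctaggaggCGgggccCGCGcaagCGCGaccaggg

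Sin3a promoter (chr9:57071790-57072039, + strand): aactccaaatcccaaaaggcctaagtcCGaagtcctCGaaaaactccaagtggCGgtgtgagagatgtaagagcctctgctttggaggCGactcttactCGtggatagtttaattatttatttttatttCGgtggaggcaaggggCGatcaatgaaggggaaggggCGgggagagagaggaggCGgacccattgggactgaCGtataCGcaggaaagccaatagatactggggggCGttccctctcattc

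In the whole 250 bases, *Rcor2* held 17 CG dinucleotides, *Sin3b* 10 and *Sin3a* 12, against a median of 6 over the promoters of 27025 genes. Of the 9 members 7 had a promoter in the RefSeq table used, and the other counts were 27 for *Hdac2*, 21 for *Kdm1a*, 25 for *Rcor1* and 34 for *Ncor1*, so all 7 were above the median. The 27025 genes were not limited to those expressed here, so the members were not compared with expressed genes alone. The *Ncor1* window lies inside its annotated gene. A GC box (GGGCGG, on either strand) was found in 6 of the 7, *Kdm1a* being the exception, and in 32.9% of all promoters of this length. *Rcor2* held 1 GC box, from 61 to 56 bases before the start, and the only E box (CACGTG) among the members, from 30 to 25 bases before the start. Both lie in the 69 exonic bases that are not printed, so neither stands in the *Rcor2* sequence shown. E boxes were found in 6.05% of all promoters. *Sin3a* held 2 CCAAT boxes (34.5% of all promoters had 1 or more), as did *Kdm1a* and *Rcor1* with 1 each, and *Sin3b* held a TATAAA on the other strand far from the start (13.0% of all promoters). None of the 7 held CCGGAAGT, TTCNNNGAA or ATTGTT on either strand, which were in 2.93%, 7.18% and 9.65% of promoters. *Rcor2* and *Sin3b* shared only the GC box, which *Sin3a* held too.

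No class I deacetylase passed the test in any comparison. *Hdac1* (chromosome 4, 129516104 to 129542713, minus strand) was at 253.9 and 229.4 CPM in parental ESCs, 285.6 and 279.2 CPM in the WT line and 264.2 and 264.8 CPM in the ΔN line. The WT libraries of *Hdac1* were above all others, at a log2 difference of 0.23 from parental ESCs (95% interval 0.04 to 0.41, adjusted p = 0.0748). Without parental replicate 1, the higher of the parental pair, it passed (0.30, adjusted p = 0.0125), and it passed too after median-ratio scaling (0.31, adjusted p = 0.0286) and after the correction for gene span (0.34, adjusted p = 0.0205), within a range of 0.0125 to 0.319. *Hdac1* mRNA cannot be separated fully from a processed pseudogene, *Gm10093* on chromosome 17 from 78491582 to 78493025, which matched an *Hdac1* transcript at 99.4% identity over 1444 bases. *Gm10093* was at 26.1 to 41.4 CPM, which was 10.2% to 14.0% of the reads of both genes together, and with its reads added the *Hdac1* difference between the WT line and parental ESCs was 0.22 (adjusted p = 0.0955).

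*Hdac2* (chromosome 10, 36974544 to 37001889), the close relative of *Hdac1*, was at 117.0 and 119.3 CPM in parental ESCs, 115.1 and 117.3 CPM in the WT line and 97.9 and 114.7 CPM in the ΔN line. Its widest gap within a line was between the ΔN libraries, and its log2 differences of -0.02, -0.16 and 0.13 had adjusted p-values of 0.880, 0.298 and 0.357 for the WT line against parental ESCs, the ΔN line against parental ESCs and the WT line against the ΔN line. The first of these was above 0 under other scalings. *Hdac3* (chromosome 18, 37935844 to 37955016, minus strand), the catalytic subunit of the NCoR complex, was at 119.6 and 109.0 CPM in parental ESCs, 122.2 and 121.2 CPM in the WT line and 138.4 and 132.2 CPM in the ΔN line. Its ΔN libraries were the highest, with a log2 difference from parental ESCs of 0.24 (95% interval 0.05 to 0.44, adjusted p = 0.0811). This difference passed without parental replicate 1 (0.31, adjusted p = 0.0143) and under 2 other settings, within a range of 0.0143 to 0.332.

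The other CoREST members, *Kdm1a* and *Rcor1*, showed no called difference. *Kdm1a*, the lysine demethylase, on chromosome 4 from 136550540 to 136602723, was at 385.8 and 340.5 CPM in parental ESCs, 356.3 and 346.3 CPM in the WT line and 369.5 and 375.3 CPM in the ΔN line. The other lines lay inside the parental range, and the 95% intervals of its log2 differences from parental ESCs were -0.24 to 0.15 in the WT line and -0.16 to 0.23 in the ΔN line, with signs that depended on the scaling or on 1 parental library. *Luzp1* overlaps *Kdm1a* on the other strand with 0 shared exon bases, at 117.5 to 173.3 CPM. *Rcor1*, the other CoREST scaffold, on chromosome 12 from 111039351 to 111115901, was the least abundant member at 30.8 to 35.7 CPM over all 6 libraries. Its log2 differences were 0.09 in the WT line (95% interval -0.16 to 0.33) and 0.01 in the ΔN line (-0.24 to 0.26), and -0.17 to 0.32 was the interval between the WT line and the ΔN line. A change of the size seen in *Rcor2* between these lines lay outside that interval.

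*Ncor1*, which joins nuclear receptors to HDAC3, lies on chromosome 11 from 62316426 to 62458541 on the minus strand. It was at 215.6 and 242.9 CPM in parental ESCs, 183.4 and 195.1 CPM in the WT line and 207.6 and 197.7 CPM in the ΔN line, so both parental libraries were above the other 4. The log2 difference from parental ESCs was -0.27 in the WT line (adjusted p = 0.0526) and -0.17 in the ΔN line (adjusted p = 0.214). Genes of chromosome 11 as a whole were lower in both lines with a transgene. Over its 1102 tested genes the median log2 difference from parental ESCs was -0.36 in the WT line and -0.33 in the ΔN line, against -0.08 and -0.06 over all genes. *Ncor1* lay above the median of its chromosome, by 0.09 in the WT line and 0.16 in the ΔN line. The 55 genes within 2 Mb of *Ncor1* had medians of -0.29 and -0.30. Of its nearest tested neighbours, *Ttc19* was at -0.45 and -0.40 and *Pigl* at -0.11 and -0.35, and both overlap *Ncor1* on the other strand by 1 and 82 exon bases. The chromosomes of the other 8 members had medians within 0.1 of that of all genes. A cause of the chromosome 11 shift was not tested. Without parental replicate 1 the *Ncor1* difference passed in the WT line (-0.36, adjusted p = 0.00531) and in the ΔN line (-0.26, adjusted p = 0.032), and over all alternatives the adjusted p ranged from 0.00531 to 0.342 and from 0.032 to 0.998.

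**Figure D2:**
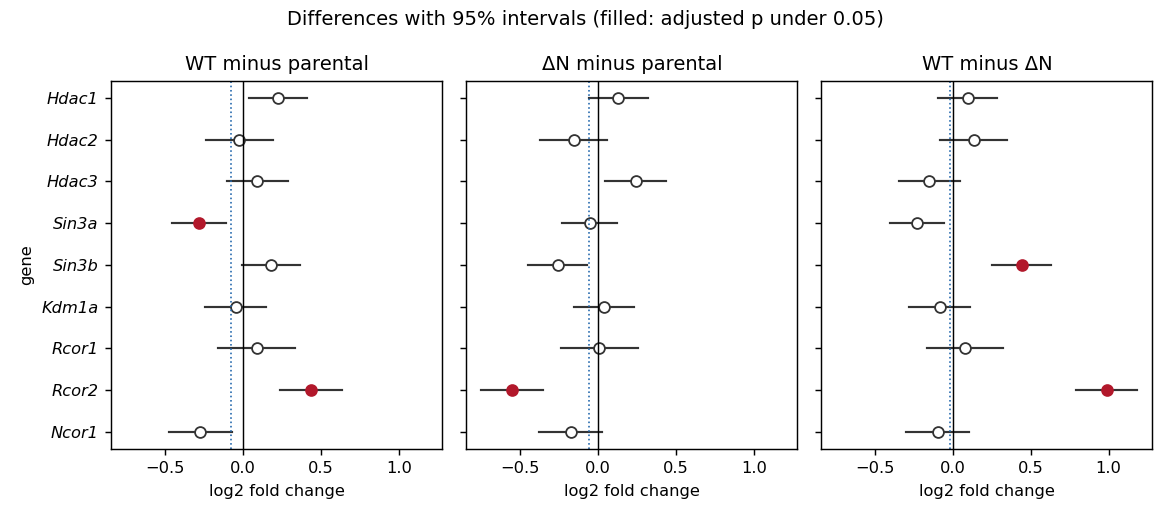
Log2 fold change of each member on the log2(CPM + 1) scale (point) with its 95% interval (bar) for the WT line against parental ESCs, the ΔN line against parental ESCs and the WT line against the ΔN line. Filled points had an adjusted p under 0.05, and the dotted line is the median of all genes tested. *Rcor2* is filled in all 3 panels, at 0.44, -0.55 and 0.99, and *Sin3a* and *Sin3b* in 1 panel each.

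Counted by comparison, at most 2 of the 9 members were called in 1 direction. In the WT line against parental ESCs, 1 of 9 members was higher (*Rcor2*) and 1 was lower (*Sin3a*), beside 8.71% of 12914 tested genes higher and 16.3% lower. In the ΔN line against parental ESCs, 0 members were higher and 1 was lower (*Rcor2*), beside 6.25% and 13.6% of all genes. Between the WT line and the ΔN line, 2 members were higher in the WT line (*Rcor2* and *Sin3b*) and 0 lower, beside 10.9% and 9.44%. Of the counts of 0 from limma, that in the ΔN line became 1 at an unadjusted p under 0.05 (*Hdac3*), as did that between the WT line and the ΔN line (*Sin3a*), and voom on the recovered reads left both at 0. Of all called genes, 34.8% were higher in the WT line against parental ESCs and 31.4% in the ΔN line, and these shares were 52.8% and 45.1% with median-ratio scaling and 49.5% and 46.7% with quantile normalization. With a log2 difference above 0.58 and a p under 0.05, limits taken from the study with the p read here as unadjusted, the only call was *Rcor2* between the WT line and the ΔN line, where 7.19% of all genes were higher and 5.24% lower. The same limits were passed by 4.65% and 9.01% of all genes in the WT line against parental ESCs and by 3.14% and 9.17% in the ΔN line. Libraries did not overlap for 5 members higher and 2 lower in the WT line against parental ESCs (24.3% and 40% of all genes), for 2 higher and 5 lower in the ΔN line (21.6% and 35.4%) and for 4 higher and 4 lower between the WT line and the ΔN line (33.2% and 35.6%). All 9 members were tested, since none was below 30.8 CPM in any library. The median log2 difference of the members was 0.09, -0.05 and 0.08 in the 3 comparisons, against -0.08, -0.06 and -0.02 for all genes.

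Set against each other per kb of merged exons, the members fell into tiers, which depended in part on the length used. The study's methods speak of exon coverage, but the deposited values were divided by the whole gene span. Whether reads in introns are included was not tested. In parental ESCs *Hdac1* had 70.2 ± 5.03 CPM per kb of exon (SD, n = 2 libraries, as for the values that follow), *Kdm1a* 70.1 ± 6.19, *Sin3a* 67.6 ± 1.82 and *Rcor2* 55.2 ± 4.11. The first 3 overlapped in their libraries, and *Rcor2* was below them. A middle tier held *Hdac3* at 28.2 ± 1.84 and *Hdac2* at 26.4 ± 0.370, and a lower one *Ncor1* at 17.9 ± 1.51 and *Sin3b* at 17.9 ± 0.123, where *Ncor1* and *Sin3b* overlapped. *Rcor1* stood lowest at 5.73 ± 0.167. In the WT line *Rcor2* stood in the second place at 74.7 ± 2.30, between *Hdac1* at 82.0 ± 1.32 and *Kdm1a* at 67.8 ± 1.36, ahead of *Sin3a* at 55.6 ± 1.04. In the ΔN line *Rcor2* was again in the fourth place at 37.5 ± 1.22, far below *Sin3a* at 65.2 ± 1.18 and close above *Hdac3* at 33.4 ± 1.09. On this scale no neighbours in the order overlapped in their 2 libraries in the WT line and in the ΔN line. With the length of the longest coding transcript in place of merged exons, the order of the means over all 6 libraries was the same, but the tiers were not. *Hdac1* was then at 129.0 and *Kdm1a* at 119.6, *Sin3a* at 65.0, *Rcor2* at 62.4 and *Hdac3* at 60.9 lay close together, and *Sin3b* at 31.6 lay beside *Hdac2* at 34.9. The place of *Rcor2* moved too: at 83.6 ± 2.57 it stood in the third place in the WT line, behind *Hdac1* and *Kdm1a* at 116.0 ± 2.33, and at 42.0 ± 1.36 in the ΔN line it was below *Hdac3* at 66.6 ± 2.18. With 2 libraries against 2, an exact permutation test cannot reach a p of 0.05, so these levels are given with no test.

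The balance within a pair of related genes differed between lines for the CoREST and Sin3 scaffolds. *Rcor1* made up 10.1% and 8.81% of the *Rcor1* and *Rcor2* CPM per kb of exon in parental ESCs, 7.50% and 7.60% in the WT line and 13.8% and 12.9% in the ΔN line. *Sin3b* made up 21.3% and 20.5% of the Sin3 pair in parental ESCs, 25.8% and 27.7% in the WT line and 18.5% and 18.7% in the ΔN line. With the longest coding transcripts the *Sin3b* share was 31.8% and 30.8%, 37.5% and 39.8%, and 28.1% and 28.5% in the same order of lines. In both pairs the 3 lines did not overlap, with either length. *Hdac2* made up 26.2% and 28.6% of the *Hdac1* and *Hdac2* sum in parental ESCs, 23.7% and 24.4% in the WT line and 22.2% and 25% in the ΔN line, where the last 2 lines overlapped. In summed CPM per kb of exon, the CoREST scaffolds were at 58.1 and 63.7 in parental ESCs, 79.0 and 82.6 in the WT line and 44.5 and 42.1 in the ΔN line. The Sin3 scaffolds together were at 84.3 and 86.7, 75.9 and 75.8, and 81.0 and 79.2 in the same order of lines, so their sum was lowest in the WT line although *Sin3b* was highest there.

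**Figure D3:**
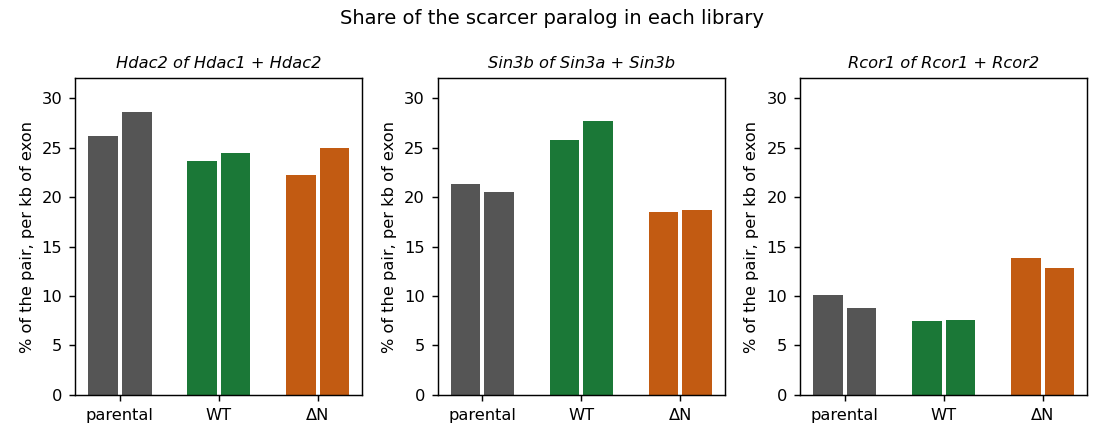
Share of the scarcer gene in 3 pairs of related genes, as a percentage of the CPM per kb of exon of the pair (axis from 0), with 1 bar for each library. *Sin3b* is at 25.8% and 27.7% of its pair in the WT line, and *Rcor1* at 13.8% and 12.9% of its pair in the ΔN line, where *Rcor2* is lowest.

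Over the 6 libraries the genes most like *Rcor2*, among 8559 other genes of 10 CPM or more, were *Steap3*, *Fzd7* and *Sox13*, with Pearson correlations of log2(CPM + 1) of 0.998, 0.998 and 0.997. All 3 lie on chromosome 1. *Fzd7*, a Wnt receptor, was at 55.4 and 65.0 CPM in parental ESCs, 105.2 and 109.9 CPM in the WT line and 33.0 and 31.6 CPM in the ΔN line. Among the members, *Sin3b* was closest to *Rcor2* (0.984), followed by *Hdac2* (0.571), and *Sin3a* was the most opposed (-0.690). These correlations rest on 3 lines of 2 libraries each and describe the pattern of lines only.

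Genes that work with the members were read from 8 lists. Their 18 counts of 0 in limma became at most 1 at an unadjusted p under 0.05, and 14 of them stayed at 0. With voom on the recovered reads all 18 were 0, but voom used the same library totals and so could not test the scaling. The lists were not counted under other scalings, which raised the share of higher calls over all genes against parental ESCs. The counts below stand beside the shares of all genes given above, 8.71% higher and 16.3% lower in the WT line, 6.25% and 13.6% in the ΔN line and 10.9% and 9.44% between the WT line and the ΔN line. Chromosome 11, whose median shift is given above, holds 1102 of the 12914 tested genes, and its share of all called genes was not counted. Of the list genes called, 4 of 22 in the WT line against parental ESCs and 5 of 16 in the ΔN line lie on it. All of these were lower. They were *Gps2*, *Kat7* and *Phf12* in both lines, *Mlx* in the WT line, and *Sap30l* and *Sirt7* in the ΔN line, of which *Phf12*, *Mlx*, *Sap30l* and *Sirt7* were named after their values were seen. Of the other histone deacetylases and sirtuins, 14 of 15 could be tested, and 2 were higher and 2 lower in the WT line than in parental ESCs. *Hdac6*, a mostly cytoplasmic tubulin deacetylase, rose by 0.36 (adjusted p = 0.0151) and *Sirt6*, a nuclear sirtuin, by 0.62 (adjusted p = 0.0238). *Hdac11* and the mitochondrial *Sirt5* fell in both lines, *Hdac11* by 0.65 in the WT line (adjusted p = 0.0478) and by 1.27 in the ΔN line and *Sirt5* by 0.76 and 0.99. With voom on the recovered reads, 1 gene of this list was lower in the WT line, in place of 2. *Hdac11* was low, at 5.73 and 9.27 CPM in parental ESCs and 2.56 and 2.32 CPM in the ΔN line. In the ΔN line 0 were higher and 3 lower, and between the WT line and the ΔN line 1 was higher, *Sirt6*, at 38.0 and 43.6 CPM in the WT line and 23.8 and 21.3 CPM in the ΔN line (log2 difference 0.83, adjusted p = 0.00808). *Hdac4*, a class IIa enzyme, was at 83.5 to 107.0 CPM over all libraries, with log2 differences of -0.08 and -0.11 from parental ESCs.

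Of 18 other subunits or partners of Sin3 complexes, 0 were higher and 5 lower in the WT line against parental ESCs, with a median log2 difference of -0.15 against -0.08 for all genes. Of these 5, *Phf12* lies on chromosome 11. *Kdm5a*, a histone H3 lysine 4 demethylase, was at 95.8 and 87.1 CPM in parental ESCs, 65.5 and 55.3 CPM in the WT line and 124.2 and 127.9 CPM in the ΔN line. The order of lines was opposite to that of *Rcor2*. *Kdm5a* fell by 0.59 in the WT line (adjusted p = 0.00491), rose by 0.46 in the ΔN line (adjusted p = 0.0145) and differed by -1.05 between them (adjusted p = 0.000247). *Tet1*, a methylcytosine dioxygenase found with SIN3A, fell by 0.48 in the WT line (adjusted p = 0.00683) and differed by -0.61 between the WT line and the ΔN line (adjusted p = 0.00192). In the ΔN line 1 of the 18 was higher, *Kdm5a*, and 2 were lower, *Phf12* by 0.56 and *Sap30l* by 0.44, both on chromosome 11. The median in that comparison was -0.11 against -0.06 for all genes, and between the WT line and the ΔN line 0 were higher and 2 lower. The histone-binding subunits *Rbbp4* and *Rbbp7*, shared with NuRD, were not called, at log2 differences of 0.07 and -0.17 in the WT line and 0.21 and -0.12 in the ΔN line.

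Of 12 tested partners of CoREST and LSD1, 1 was higher and 1 lower in the WT line, 0 higher and 1 lower in the ΔN line, and 2 higher and 1 lower between the WT line and the ΔN line. *Rest*, the zinc finger repressor that recruits CoREST to neuronal genes, was at 279.4 and 283.5 CPM in parental ESCs, 277.3 and 272.7 CPM in the WT line and 310.7 and 295.6 CPM in the ΔN line, with no call. *Ctbp2*, another corepressor, had log2 differences of 0.07 and 0.08 from parental ESCs. Of 17 tested neuronal genes known as REST targets, 2 were higher and 3 lower in the WT line and 2 higher and 2 lower in each of the other comparisons, so no direction was shared. *Stmn2* followed the order of *Rcor2* in part, at 378.7 and 377.8 CPM in parental ESCs, 389.5 and 406.1 CPM in the WT line and 235.8 and 238.2 CPM in the ΔN line, and fell by 0.67 in the ΔN line (adjusted p = 0.000609). *Tubb3* was higher in the WT line than in the ΔN line by 0.62 (adjusted p = 0.00191), whereas *Scg3* and *Gad1*, both under 4 CPM, were lower by 1.14 and 1.12. *Syn1* fell in both lines, by 0.61 and 0.73, whereas *Unc13a*, named after its values were seen, rose in both, by 0.46 and 0.67. *Chrm4* fell in the WT line by 0.67 and was low, at 6.25 and 5.64 CPM in parental ESCs. *Kcnh2* had a log2 difference of 0.70 in the WT line (adjusted p = 0.0527), with parental libraries at 10.0 and 18.3 CPM.

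Of 4 other NCoR subunits, 1 was lower in the WT line and 1 in the ΔN line, the same gene, *Gps2*. *Gps2*, a core subunit of the complex, was at 38.5 and 52.7 CPM in parental ESCs, 28.2 and 29.0 CPM in the WT line and 30.2 and 28.3 CPM in the ΔN line. It fell by 0.64 and by 0.61, and it lies on chromosome 11. Between the WT line and the ΔN line 0 were higher and 2 lower, *Coro2a* by 0.63 at under 4 CPM and *Tbl1xr1* by 0.36 (adjusted p = 0.0441). *Tbl1x*, a subunit that binds histones like *Tbl1xr1*, had log2 differences of -0.18 and -0.18 from parental ESCs. The 3 subunits of MiDAC, a deacetylase complex of HDAC1 and HDAC2, gave 0 calls in each comparison, with log2 differences from -0.23 to 0.26, among them *Elmsan1* at 0.04 and 0.21 and *Trerf1* at 0.20 and -0.06 in the WT line and the ΔN line.

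Of 8 genes of the MAX network, whose MXD proteins bring Sin3 to E boxes, 1 was higher and 2 lower in the WT line against parental ESCs. *Mxd3* rose by 0.88 (adjusted p = 0.00523), from 4.59 and 5.37 CPM to 9.42 and 10.6 CPM, and *Mga* fell by 0.37 (adjusted p = 0.0144). In the ΔN line 0 were higher and 1 lower, and between the WT line and the ΔN line 1 was higher, *Mxd3*, and 1 lower, *Mga* (-0.51, adjusted p = 0.00386). *Max* itself was at 88.1 to 101.5 CPM in all libraries. Of 13 histone acetyltransferases and coactivators, which act against the members, 0 were higher and 2 lower in the WT line, 0 higher and 3 lower in the ΔN line, and 1 higher and 0 lower between the WT line and the ΔN line. *Kat7* fell by 0.48 and 0.32 in the WT line and the ΔN line and lies on chromosome 11, and *Ncoa1* fell by 0.67 in the WT line. *Hat1*, which acetylates new histone H4, was at 295.2 to 403.0 CPM with no call.

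**Figure D4:**
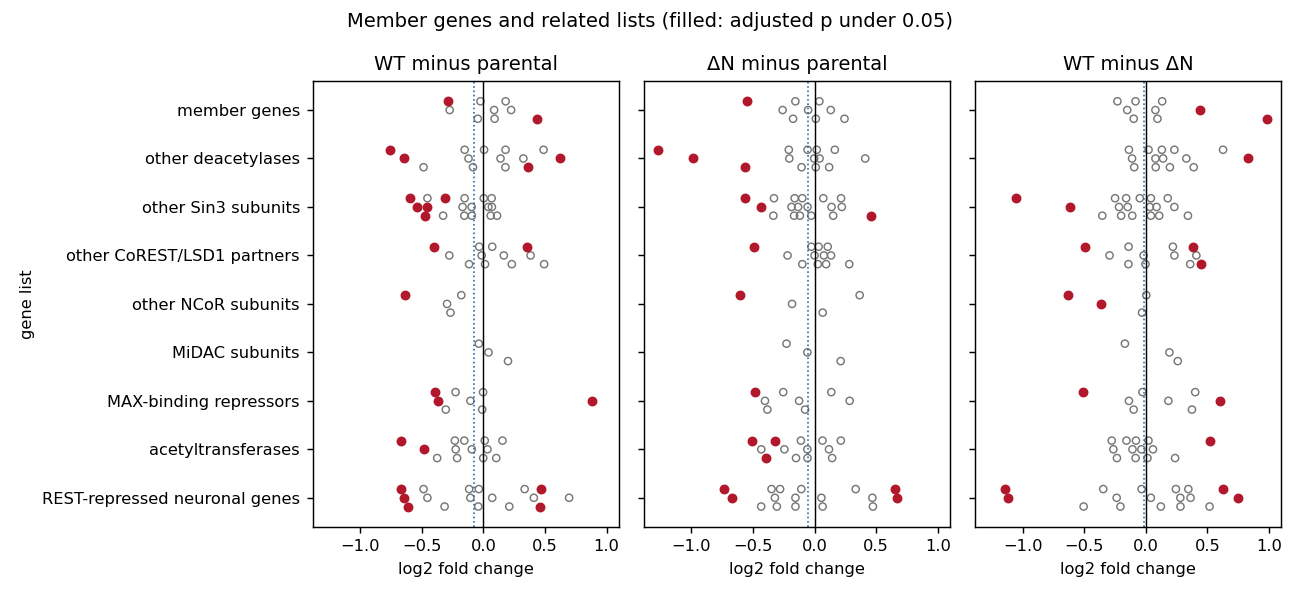
Log2 fold changes (horizontal axis) of the 9 members and of the tested genes of 8 related lists (rows) in the 3 comparisons, where a circle is a gene, filled with an adjusted p under 0.05, and the dotted line is the median of all genes. In the WT line against parental ESCs the 5 filled subunits or partners of Sin3 all lie below 0, where 16.3% of all genes were called lower. Between the WT line and the ΔN line *Rcor2* is the member farthest to the right, at 0.99.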

How the data were processed

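RNA-seq was compared in 3 mouse ESC lines with 2 libraries each. The authors deposited RPKM values for 50978 genes, from unstranded polyadenylated RNA aligned to mm10. The submitters' processing notes name Bowtie2 2.3.4.3 and Subread 1.4.6-p4, while the study's methods name STAR for RNA-seq and Bowtie2 for ChIP-seq, so the counter behind the RPKM table is not certain. Tables of the authors' own comparisons (fold changes, standard errors, p-values and mean reads) were not used, and the ChIP-seq samples were not analysed here.

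The deposited RPKM values had been divided by the whole gene span: with that length, 98.0% to 98.4% of values up to 20 reads came within 0.1 of whole reads, against 16.6% to 36.7% with exon length. RPKM times span therefore gave CPM and reads. Genes were matched by symbol to GENCODE vM21, and 47940 were used, after 176 repeated or date-like names, 2796 without a match and 66 with several matches were left out. Genes above 1 CPM in 2 libraries (12914) were fitted with limma 3.58.1 on log2(CPM + 1) with a trend, all 3 lines together, two-sided, with Benjamini-Hochberg adjustment. A call had an adjusted p under 0.05. On simulated counts of 12914 genes for the WT line against parental ESCs, 100% of 200 changed genes were called, with 17 others. All genes and lines had the same simulated dispersion, and changes were planted only above 10 CPM. In the data the parental pair was the least alike, so these figures do not give the error rate of the data. The planted log2 changes were all larger than the differences of the members, so recovery of changes of the members' size was not tested. Alternatives were other pseudocounts, filters, scalings, voom on reads, the replicate number as a block, subsets of lines and libraries, and a correction for gene span. Counting the pseudogene reads with *Hdac1* was chosen after seeing the data.

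A gene of the NCoR list is not reported here. The members and lists were chosen with earlier results of these data known. Named were all members, *Pramel7*, from each list the genes past the limits of the study in any comparison (up to 6) and its 2 most abundant genes, the nearest genes where a chromosome was shifted by over 0.1, and the 3 genes most like the member with the largest F statistic. Near copies of members were searched with blastn 2.17.0.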

Additional observations from a re-analysis of the deposited data

Results flagged for a closer look

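For 2 members the WT line and the ΔN line differed in the direct contrast between them, which is the comparison already given above. *Rcor2* was at 0.99 (log2, WT line minus ΔN line, limma adjusted p = 0.000137). Its differences from parental ESCs were 0.44 in the WT line and -0.55 in the ΔN line. *Sin3b* was at 0.44 (adjusted p = 0.00616), with differences from parental ESCs of 0.18 and -0.26 that did not pass on their own. The 2 lines also differed in *Pramel7* mRNA and in clone. Both had gone through puromycin selection and single-cell cloning, so the protein and these steps cannot be told apart in a difference from parental ESCs.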

How the results depend on the processing

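The members had 583 reads or more in each library. Refits with 1 library left out are given below, and an effect of more libraries or of other clones on the calls could not be tested. Of the 6 counts of called members, 68 values over alternatives that kept all libraries stayed within 1.5 times and 16 did not. In the WT line against parental ESCs, 3 members were higher with median-ratio scaling and 3 with the correction for gene span, and 0 with the limits of the study. In the same comparison 0 were lower with no filter, with only the compared lines, with median-ratio scaling, with RPKM not converted to CPM (where 4 members were left to test), without the trend, with the correction for gene span and with the limits of the study. In the ΔN line against parental ESCs, 1 was higher with median-ratio scaling and 1 with the correction for gene span, and 0 were lower with the limits of the study. Between the WT line and the ΔN line, 1 was higher with unconverted RPKM and 1 with the limits of the study, and 1 (*Sin3a*) was lower with only the compared lines. With 1 library left out, which leaves a line with a lone library assumed to vary like the others, the counts ranged from 0 to 2 higher and from 0 to 2 lower in the WT line against parental ESCs, from 0 to 1 higher and from 1 to 3 lower in the ΔN line, and from 1 to 2 higher and from 0 to 1 lower between the WT line and the ΔN line. Signs turned only for differences that had passed no test. *Hdac2* in the WT line was at 0.0035 with quantile normalization, 0.0020 with upper-quartile scaling, 0.065 with median-ratio scaling and 0.10 with the correction for gene span. *Kdm1a* in the WT line was at 0.044 with median-ratio scaling and 0.11 with the correction for gene span, and *Sin3a* in the ΔN line at 0.021 and 0.074. With 1 library left out, *Kdm1a* ranged from -0.13 to 0.045 in the WT line and from -0.051 to 0.13 in the ΔN line, and *Rcor1* from -0.078 to 0.10 in the ΔN line and from -0.011 to 0.17 between the WT line and the ΔN line. The causes were not tested.

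With the replicate number as a block, the calls were the same: 1 higher and 1 lower in the WT line, 0 and 1 in the ΔN line, and 2 and 0 between them, with *Rcor2* at 0.99 (adjusted p = 0.000923). The deviations of same-numbered libraries correlated at 0.21, -0.25 and -0.10 over genes for parental with WT, parental with ΔN and WT with ΔN. These values cannot decide whether some same-numbered libraries shared a batch.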
